A study of Mus musculus with 4 samples.

Results

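Of 17665 barcodes kept from 4 single-cell libraries of injured mouse muscle, 78 were dendritic cells that carried *Ccr7* and *Fscn1*, the marker pair of mature dendritic cells. A barcode counted as one when it held at least 1 UMI (unique molecular identifier, 1 counted RNA molecule) of each of these genes, and when *Cd74*, *H2-Aa*, *H2-Ab1* and *H2-Eb1*, genes of MHC class II, together reached 50 UMIs per 10000. Its complement genes *C1qa*, *C1qb* and *C1qc*, which mark macrophages, had to sum to under 5 UMIs per 10000, *Xcr1* and *Clec9a* to under 2 UMIs, and no UMI of *Cd209a*, *Cd3e* or *Cd79a* was allowed. Kept barcodes had at least 500 detected genes and under 10% mitochondrial UMIs, and 20500 barcodes had been deposited. The cells were thus chosen by the measured levels of these genes, which are therefore given as a description, and every test leaves them out.

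The libraries held leukocytes selected by magnetic beads for surface CD45. They came from the tibialis anterior, which lies at the front of the shin, and the animals were male, 8 to 12 weeks old and of C57BL/6J background. All muscles had been injured with cardiotoxin, a snake venom toxin that kills muscle fibres, and were taken 2 or 4 days later (dpi2 and dpi4). Control mice were Bach1 fl/fl, and mice labelled KO were Bach1 fl/fl with a Cre recombinase under the *Lyz2* promoter, which is active in monocytes, macrophages and neutrophils. *Bach1* encodes a heme-binding repressor of transcription. Each of the 4 groups, control dpi2, KO dpi2, control dpi4 and KO dpi4, had 1 library, so differences between genotypes or days had no replicate and were not tested. Wherever 4 values follow each other below, they are in that order. Levels are UMIs per 1000000 UMIs (CPM) of the summed cells of a library.

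Dendritic cells take up antigen in tissues in an immature state. After an activating signal they lower uptake, raise the chemokine receptor CCR7, remodel their actin skeleton with fascin, the product of *Fscn1*, and migrate through lymph vessels to the draining lymph node. There they present antigen to T cells together with costimulatory ligands, cytokines and ligands that restrain T cells, and much of this programme is driven by NF-kB transcription factors, among them the RELB and p52 pair.

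The 78 cells comprised 7 in the control dpi2 library, 9 in KO dpi2, 25 in control dpi4 and 37 in KO dpi4. Their median UMI counts were 8194, 13430, 10633 and 9421, single cells ranged from 1604 to 25217, and the summed UMIs were 69310, 118401, 288319 and 355972. The whole libraries held from 57010520 to 80228489 UMIs, and any pair of libraries shared from 2 to 14 cell barcodes. Because the dpi2 sums rest on 7 and 9 cells, a single cell could set a level there. Of the listed genes described below with at least 5 UMIs in the library, the richest cell held over 50% of the control dpi2 UMIs for *Ccl22*, *Il12b*, *Il1b*, *Tnfsf9*, *Pdcd1lg2*, *Fas*, *Sirpa*, *H2-DMb1*, *H2-Eb2*, *Klrd1* and *Rora*, from 57.9% for *H2-Eb2* to 100% for *Tnfsf9*. In KO dpi2 the same held for *Tnf*, *Cd40*, *Tnfsf9*, *Cd48*, *Fas*, *Tnfaip3*, *Sirpa*, *H2-DMb1*, *Cd14*, *Serpinb6b*, *Slc7a11*, *S100a8*, *S100a9* and *Rora*, from 52.9% for *Tnfaip3* to 100% for *Tnfsf9*. At dpi4 it held for *Il1b*, *Cd8a* and *Ifit3* in the controls, and for *Tnf*, *Ifit1*, *Mki67* and *Ms4a1* in KO.

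*Ccr7* (chromosome 11, 99144196 to 99155077, minus strand; all gene positions are on GRCm38) stood at 3015, 2492, 2768 and 2761 CPM in the mature dendritic cells. *Fscn1* (chromosome 5, 142960343 to 142973185, plus strand) stood at 866, 1039, 1589 and 2270 CPM. These values describe the gate: a single cell held from 1 to 67 *Ccr7* UMIs with a median of 29.5, and from 1 to 75 *Fscn1* UMIs with a median of 16. Raising the minimum to 2 UMIs of each gene kept 71 cells. In T cells of the same libraries (*Cd3e* at least 2 UMIs, class II and complement genes under the limits above and no *Cd79a* UMI; 15, 10, 17 and 16 cells), *Ccr7* stood at 31.4, 0, 15.6 and 0 CPM and no *Fscn1* UMI was counted.

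Near the limits of the gate, the class II sum of the mature cells ran from 50.6 to 825 UMIs per 10000 with a median of 354, whereas the 31 barcodes that failed this limit alone lay between 2.01 and 49.3. The C1q sum ran from 0 to 4.99 inside, and from 5.44 to 91.2 in the 11 barcodes that failed on it alone. In all, 149 kept barcodes held both *Ccr7* and *Fscn1*. A further 7 failed on *Cd209a* alone, 2 on *Xcr1* and *Clec9a* alone, and 20 failed 2 or more criteria.

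The targeted gene, *Bach1* (chromosome 16, 87698945 to 87733346, plus strand), gave 3, 8, 17 and 26 UMIs in the mature dendritic cells, or 43.3, 67.6, 59.0 and 73.0 CPM, with no drop under the KO label. Reads from the 3′ end do not show the deleted exon, so this does not check the deletion. *Lyz2*, the lysozyme gene whose promoter carries the Cre, stood at 231, 8.45, 714 and 2.81 CPM. All 25 control dpi4 cells and 1 of 37 KO dpi4 cells held a *Lyz2* UMI, and the T cells of the same libraries showed 3722, 0, 600 and 0 CPM. The part of free RNA in these *Lyz2* values was not tested, and they do not check the *Bach1* deletion.

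The label of mature dendritic cells was checked against 8 markers that the gate did not use. *Relb* and *Cd83* were found in 77 of 78 cells each, *Socs2* in 69 and *Ccl22* in 55, and every one of the 8, with *Cacnb3*, *Il4i1*, *Flt3* and *Zbtb46*, was present in each of the 4 libraries. At dpi2 *Zbtb46* rested on 7 and 6 UMIs and *Flt3* on 9 and 15, so presence there is a weak check. With every cell thinned to 2000 UMIs, *Relb* was seen in 57.1%, 87.5%, 80.0% and 72.2% of mature cells against 0%, 10.0%, 0% and 18.8% of T cells, and *Socs2* in 71.4%, 62.5%, 64.0% and 55.6% against 0% in all 4. Median depths before thinning were 8194, 13430, 10633 and 9421 UMIs for the mature cells and 4220, 5874.5, 6517 and 5243 for the T cells. Thinning left out 2 mature cells and 1 T cell.

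Marker lists of other cell types were summed over the same cells. Of 11 T and NK cell genes, 8 had no UMI in any mature cell, including *Cd3d*, *Cd3g* and *Nkg7*, and the list summed to between 42.2 and 433 CPM against 3440 to 7114 CPM in T cells, most of it from *Klrd1*. The B cell gene *Pax5* and the innate lymphoid genes *Gata3*, *Il1rl1* and *Il13* were at 0. So were the muscle and stroma genes *Myh1*, *Dcn* and *Cdh5*, but 6 of the 9 genes of that list had UMIs. The muscle and stroma list summed to 14.4, 8.45, 34.7 and 22.5 CPM, against 17.9, 14.8, 784 and 58.8 CPM in *Cd209a* dendritic cells. The B cell list summed to 28.9, 8.45, 31.2 and 30.9 CPM, against 3.81, 2.87, 13.6 and 5.88 CPM in *Cd209a* dendritic cells. Its gene *Ms4a1* gave 0, 0, 6 and 9 UMIs. The innate lymphoid list had UMIs of 2 of its 8 genes and summed to 231, 76, 128 and 42.1 CPM, nearly all from *Rora*, a nuclear receptor. *Rora* was higher than in *Cd209a* dendritic cells by 3.6 ± 0.39 (edgeR adjusted p = 2.5e-08) and than in *Xcr1* *Clec9a* dendritic cells by 6.46 ± 0.55 (edgeR adjusted p = 1.5e-06), and T cells held 565, 649, 195 and 335 CPM. The plasmacytoid dendritic cell list summed to 317, 169, 219 and 264 CPM, against 306, 240, 328 and 492 CPM in *Cd209a* dendritic cells. The monocyte list summed to 144, 101, 583 and 309 CPM, with 1 control dpi4 cell at 118 UMIs per 10000, against 1769 to 3418 CPM in *Cd209a* dendritic cells. T cells gave 4590, 455, 2424 and 2052 CPM and macrophages 3442, 3225, 883 and 722 CPM for this list, so that T cell values below are not a measure of free RNA alone. The part of these transcripts in the results was not tested. All 8 macrophage genes had UMIs, summing to 289, 296, 1325 and 646 CPM beside 554, 292, 1107 and 535 CPM in T cells and 10740 to 31999 CPM in macrophages. Neutrophil genes summed to 43.3, 1655, 20.8 and 0 CPM. The KO dpi2 value came from 1 cell with 121 of 122 *S100a8* UMIs and 59 of 64 *S100a9* UMIs, which also held 22 *Ccr7* and 23 *Fscn1* UMIs. It gave 11.1% of the UMIs of the KO dpi2 cells, and several ratios below are also given without it.

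Mature dendritic cells made up 0.116% of kept barcodes in the control dpi2 library (exact 95% binomial interval 0.0468 to 0.240%), 0.237% in KO dpi2 (0.108 to 0.449%), 0.578% in control dpi4 (0.375 to 0.853%) and 1.05% in KO dpi4 (0.738 to 1.44%). Both dpi4 shares lay above the interval of the dpi2 library of the same genotype. At either day the intervals of the 2 genotypes overlapped. Among dendritic cells only, counted as these cells plus 690 *Cd209a* dendritic cells and 128 *Xcr1* *Clec9a* type 1 dendritic cells, the shares were 2.94%, 5.14%, 11.4% and 14.0%, with the same order of the libraries. The intervals cover counting error only, 1 library stood for each group, and each share was cut from a UMI minimum: with all barcodes thinned to 2000 UMIs before the gate, the shares were 0.105%, 0.163%, 0.334% and 0.583%.

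**Figure D1:**
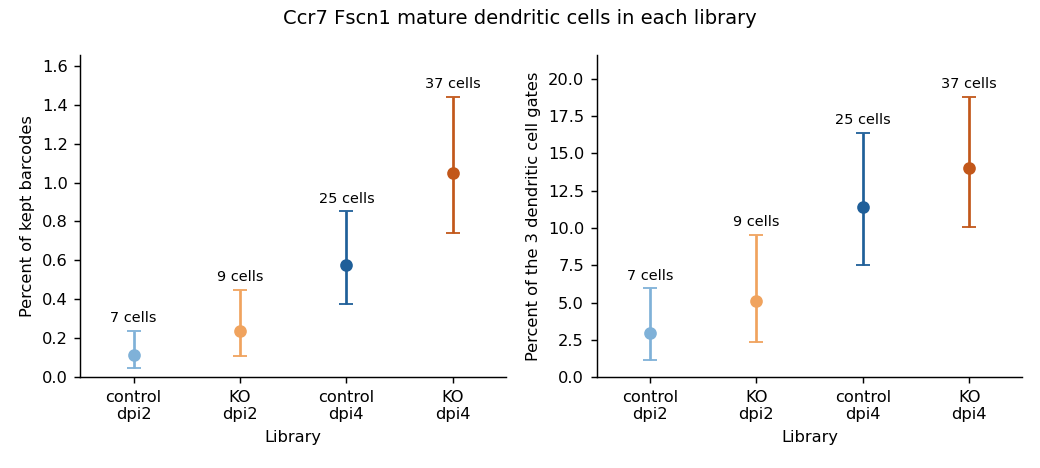
Percent of kept barcodes (left) and percent of the cells of 3 dendritic cell gates (right) that were mature dendritic cells, by library, with cell numbers and exact 95% binomial intervals. Both dpi4 libraries stood above both dpi2 libraries on either scale, at 0.578% and 1.05% against 0.116% and 0.237% of kept barcodes.

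To describe what set the mature cells apart from other dendritic cells, their UMI sums were compared with those of 2 other gates within each library. *Cd209a* dendritic cells (at least 1 *Cd209a* UMI and under 2 UMIs of *Xcr1* and *Clec9a*) resemble type 2 dendritic cells, which prime CD4 T cells, and *Xcr1* *Clec9a* dendritic cells (at least 2 UMIs of the pair and no *Cd209a* UMI) resemble type 1 dendritic cells, which take up dead cells and prime CD8 T cells. Both gates had the class II minimum, the limit on complement genes and the absence of *Cd3e* and *Cd79a* in common with the mature cells, and both left out barcodes that held *Ccr7* together with *Fscn1*. The test was edgeR's quasi-likelihood test over the 4 libraries with the library as a block, and called means an adjusted p under 0.05. Because the libraries differ in genotype and day, a call says that the difference was large against its spread over these 4 libraries. Against *Cd209a* dendritic cells 983 genes were higher (13.8% of 7131 tested) and 1344 were lower (18.8%), with a median log2 fold change of −0.18 over all tested genes. Against *Xcr1* *Clec9a* dendritic cells 901 were higher (20.9% of 4309) and 875 lower (20.3%), with a median of −0.07. With library totals in place of TMM factors the second contrast split into 776 higher and 1152 lower. The member counts below are read beside these shares. Genes that were at 0 in the mature cells entered the tests only through the other gate, and genes at 0 in the other gate only through the mature cells.

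Chemokines and T cell cytokines stood higher in the mature cells for 5 of the 10 listed genes that could be tested against *Cd209a* dendritic cells, namely *Ccl22*, *Ccl5*, *Cxcl16*, *Il12b* and *Il15*. The 4 that were lower were *Cxcl10*, *Il1b*, *Il6* and *Tnf*, mediators of early inflammation. The calls of *Il6* (−2.34, adjusted p = 0.079) and *Tnf* (−0.57, adjusted p = 0.30) were lost without control dpi4. The list held 16 genes, and its median log2 fold change was 1.33. In the contrast with *Xcr1* *Clec9a* dendritic cells 6 of 8 were higher and none was lower, with a median of 3.16. *Ccl17*, a chemokine often made alongside *Ccl22*, had 0, 0, 6.94 and 5.62 CPM and was not tested.

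*Ccl22* (chromosome 8, 94745590 to 94751699, plus strand) encodes a ligand of CCR4 that draws regulatory T cells. Its level was 418, 667, 548 and 843 CPM in the mature cells, 2.29, 6.98, 5.11 and 43.1 CPM in *Cd209a* dendritic cells and 0, 2.79, 0 and 24.6 CPM in *Xcr1* *Clec9a* dendritic cells. The gates did not overlap in any comparison of libraries. The log2 fold change was 5.95 ± 0.33 (SE, 4 libraries, edgeR adjusted p = 9.4e-14) against the first and 6.57 ± 0.48 (adjusted p = 4.9e-07, edgeR) against the second. A thinned *Ccl22* UMI was found in 14.3%, 50%, 52.0% and 58.3% of mature cells and in 0%, 0%, 0% and 6.25% of T cells. In the control dpi2 library 89.7% of the *Ccl22* UMIs came from 1 of its 2 positive cells.

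*Ccl5* (chromosome 11, 83525778 to 83530518, minus strand), a chemokine that attracts T cells and NK cells, reached 3001, 1030, 4162 and 3981 CPM in the mature cells. It stayed between 32.4 and 88.9 CPM in *Cd209a* dendritic cells and between 0 and 4.59 CPM in *Xcr1* *Clec9a* dendritic cells, so the groups were far apart in every library. The log2 fold changes were 5.67 ± 0.31 (edgeR adjusted p = 6.5e-14) and 10.06 ± 0.29 (edgeR adjusted p = 3.6e-10). T cells also hold *Ccl5*, in 68.8% of thinned cells at dpi4 in both genotypes against 76.0% and 72.2% of the mature cells. *Cxcl16*, the membrane-bound ligand of CXCR6, was higher by 2.72 ± 0.20 (edgeR adjusted p = 3.0e-11) against *Cd209a* dendritic cells, at 1169, 1613, 1262 and 1045 CPM against 122, 167, 299 and 253 CPM.

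*Il12b* (chromosome 11, 44400063 to 44414033, plus strand), the shared p40 subunit of IL-12 and IL-23, had 384 UMIs in the mature cells and 1 in all *Cd209a* dendritic cells. The pooled log2 ratio was 12.00 with a counting interval of 9.51 to 17.30. By library the mature cells held 72.1, 25.3, 531 and 626 CPM, so that the dpi2 levels lay far under those at dpi4. In *Xcr1* *Clec9a* dendritic cells *Il12b* stood at 0, 306, 1.53 and 18.1 CPM, and the KO dpi2 value of 306 CPM exceeded that of the mature cells. All 110 of those KO dpi2 UMIs came from 1 barcode. The fold change of 3.57 ± 1.26 (edgeR adjusted p = 0.037) was lost without control dpi2 (adjusted p = 0.13), control dpi4 (2.20, adjusted p = 0.27) or KO dpi4 (2.37, adjusted p = 0.31). Without KO dpi2 it was 6.1 (edgeR adjusted p = 5.6e-08). *Il12a* and *Il23a*, the partner subunits, were too low to test. *Il15*, a survival cytokine for NK and memory CD8 T cells, was higher by 2.46 ± 0.42 (edgeR adjusted p = 3.9e-05) and 2.95 ± 0.42 (edgeR adjusted p = 9.4e-05), at 28.9, 67.6, 62.4 and 56.2 CPM in the mature cells.

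Of the inflammatory mediators, *Cxcl10*, an interferon-induced chemokine, fell from 611, 127, 45.4 and 172 CPM in *Cd209a* dendritic cells to 0, 8.45, 6.94 and 16.9 CPM in the mature cells. The log2 difference was −3.77 ± 0.41 (edgeR adjusted p = 3.6e-08), and the mature cells were lower in 4 of 4 libraries. *Il1b* stood at 491, 3066, 1030 and 826 CPM against 2007, 3783, 3469 and 2901 CPM, lower by −1.35 ± 0.20 (edgeR adjusted p = 4.6e-06), or by −1.08 with no library block (edgeR adjusted p = 0.060). Its KO dpi2 value, the highest of the mature cells, drew 39.4% of its UMIs from the cell rich in neutrophil transcripts and was 2091 CPM without it.

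**Figure D2:**
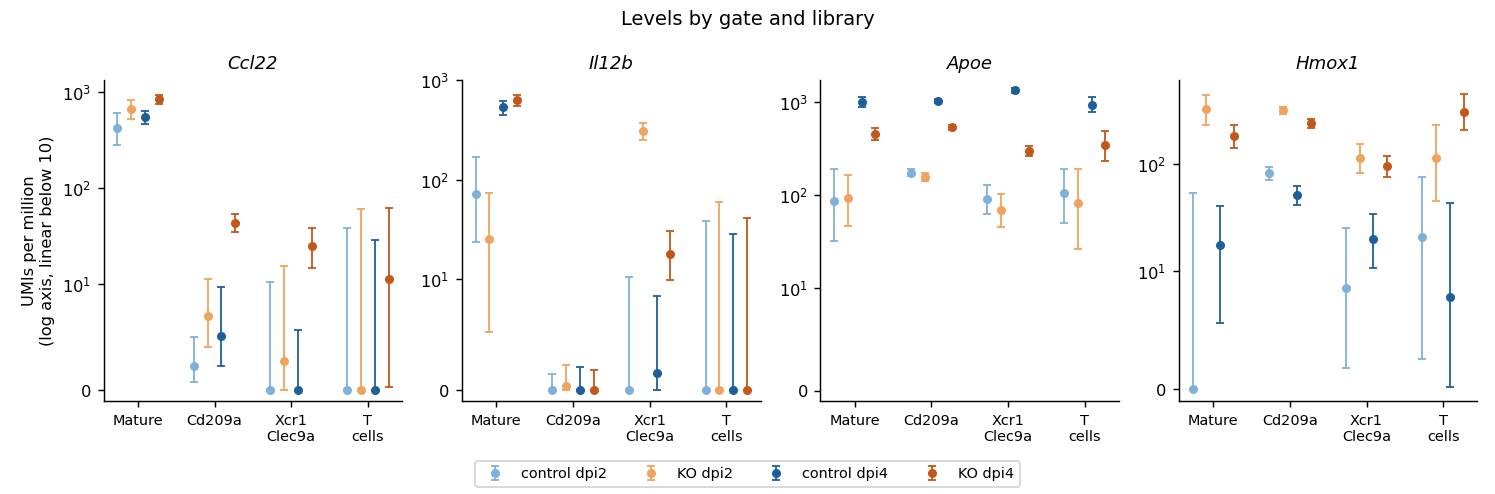
UMIs per 1000000 of *Ccl22*, *Il12b*, *Apoe* and *Hmox1* in the mature dendritic cells, the *Cd209a* and *Xcr1* *Clec9a* dendritic cells and the T cells of each library, with 95% Poisson intervals, on an axis that is linear below 10 and logarithmic above. *Ccl22* separated the mature cells from the other gates in every library, whereas *Apoe* followed the day and *Hmox1* the label in T cells too.

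Costimulatory genes split by ligand. Against *Cd209a* dendritic cells 5 of 9 tested genes of a list of 12 were higher (*Cd40*, *Cd80*, *Cd83*, *Icosl* and *Icam1*) and 2 were lower (*Tnfsf9* and *Cd48*), with a median of 0.91. The call of *Icosl*, the ligand of ICOS, was lost without KO dpi4 (0.98, adjusted p = 0.16) or control dpi4 (1.16, adjusted p = 0.086). Against *Xcr1* *Clec9a* dendritic cells 6 of 8 were higher, *Tnfsf9* now among them, and *Cd48* was again lower, with a median of 2.36. *Cd40*, the receptor through which CD4 T cells license dendritic cells, stood at 346, 236, 284 and 155 CPM in the mature cells against 59.5, 30.8, 36.9 and 42.2 CPM and 11.4, 47.4, 10.7 and 7.77 CPM. It was higher by 2.65 ± 0.23 (edgeR adjusted p = 7.5e-10) and by 4.05 ± 0.38 (edgeR adjusted p = 3.3e-06). *Cd83*, which stabilises surface MHC class II and CD86, was higher by 0.91 ± 0.17 (edgeR adjusted p = 9.7e-05) and 1.32 ± 0.16 (edgeR adjusted p = 2.2e-05).

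*Cd86*, a ligand of CD28, did not pass either test, at 144, 118, 125 and 101 CPM in the mature cells and with log2 differences of −0.45 ± 0.22 (edgeR adjusted p = 0.12) and −0.38 ± 0.25 (edgeR adjusted p = 0.25). *Cd80*, the other CD28 ligand, stood at 101, 50.7, 59.0 and 101 CPM. It was higher by 1.21 ± 0.32 (edgeR adjusted p = 0.0041) against *Cd209a* dendritic cells, a call that was lost without KO dpi4 (0.83, adjusted p = 0.16), and by 3.77 ± 0.49 (edgeR adjusted p = 4.8e-05) against *Xcr1* *Clec9a* dendritic cells. *Tnfsf9*, the 4-1BB ligand, stood between the other gates: its 115, 76.0, 305 and 180 CPM were lower than in *Cd209a* dendritic cells by −1.47 ± 0.22 (edgeR adjusted p = 8.2e-06) and higher than in *Xcr1* *Clec9a* dendritic cells by 3.06 ± 0.42 (edgeR adjusted p = 7.0e-05).

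Genes that restrain T cells were among the clearest differences. Of 10 tested genes of a list of 12, 6 were higher against *Cd209a* dendritic cells (*Cd274*, *Pdcd1lg2*, *Cd200*, *Fas*, *Il4i1* and *Socs2*) and 3 were lower (*Socs3*, *Lgals9* and *Havcr2*), with a median of 3.23. In the second contrast 5 of 8 were higher and 2 lower, with a median of 4.82. Not all of these genes act on T cells. *Socs2* and *Socs3* encode feedback inhibitors of cytokine signalling inside the cell that makes them, and *Fas* encodes a death receptor.

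*Cd274*, which encodes PD-L1, stood at 260, 355, 205 and 216 CPM in the mature cells, between 21.7 and 38.0 CPM in *Cd209a* dendritic cells and between 0 and 44.6 CPM in *Xcr1* *Clec9a* dendritic cells. Every library showed the difference, by 3.06 ± 0.24 (edgeR adjusted p = 7.2e-11) and 5.01 ± 0.53 (edgeR adjusted p = 8.6e-06). *Il4i1* (chromosome 7, 44816387 to 44840809, plus strand), a secreted enzyme that oxidises phenylalanine, reached 1198, 1191, 742 and 823 CPM against at most 23.8 and 72.4 CPM. It was higher by 6.23 ± 0.28 (edgeR adjusted p = 1.9e-15) and by 6.52 ± 0.63 (edgeR adjusted p = 4.6e-06). *Socs2* (chromosome 10, 95385362 to 95417180, minus strand) stood at 505, 608, 402 and 534 CPM against 3.28 to 5.88 CPM in *Cd209a* dendritic cells, higher by 6.97 ± 0.26 (edgeR adjusted p = 4.7e-17). In *Xcr1* *Clec9a* dendritic cells it was counted in KO dpi2 alone, where all 12 UMIs lay in 1 barcode.

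*Cd200* (chromosome 16, 45382135 to 45409053, minus strand) encodes a surface ligand that inhibits myeloid cells through CD200R. At 851, 684, 295 and 228 CPM it was higher in the mature cells of every library, by 6.42 ± 0.37 (edgeR adjusted p = 2.3e-13) and 4.63 ± 0.36 (edgeR adjusted p = 7.3e-07). *Pdcd1lg2*, which encodes PD-L2, was higher by 3.41 ± 0.48 (edgeR adjusted p = 2.1e-06) against *Cd209a* dendritic cells at 86.6, 84.5, 17.3 and 36.5 CPM. *Ido1*, a tryptophan-degrading enzyme, had no UMI in any of the 78 cells.

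Migration and cell shape genes were mostly higher. In each contrast 11 of 13 tested genes of a list of 15 were higher and 1, *Vim*, which encodes vimentin, was lower, with medians of 2.13 and 2.31. *Cacnb3* (chromosome 15, 98630840 to 98644529, plus strand), a calcium channel subunit, stood at 332, 329, 371 and 379 CPM in the mature cells, at 0, 1.23, 0.568 and 0.490 CPM in *Cd209a* dendritic cells and at 2.85, 22.3, 4.59 and 2.59 CPM in *Xcr1* *Clec9a* dendritic cells. The mature cells thus varied little between libraries. The differences were 9.12 ± 0.37 (edgeR adjusted p = 1.5e-16) and 5.85 ± 0.42 (edgeR adjusted p = 4.5e-07). *Tmem123*, a membrane mucin, reached 3030, 2247, 3139 and 2722 CPM against at most 160 and 131 CPM, higher by 4.40 ± 0.17 (edgeR adjusted p = 4.7e-17) and 5.83 ± 0.35 (edgeR adjusted p = 1.9e-07). *Marcks* and *Marcksl1*, actin-binding substrates of protein kinase C, were higher by 2.45 ± 0.17 and 1.99 ± 0.18 against *Cd209a* dendritic cells, and *Il7r*, the IL-7 receptor chain, by 1.92 ± 0.25 (edgeR adjusted p = 7.6e-07). *Vim* was lower by −1.45 ± 0.18 (edgeR adjusted p = 2.9e-07) against *Cd209a* dendritic cells. In the second contrast it was lower by −0.72 ± 0.18 (edgeR adjusted p = 0.0056), a call lost without control dpi4 (−0.61, adjusted p = 0.056). *Cxcr4*, a chemokine receptor, was not called in the first contrast (−0.25 ± 0.20, edgeR adjusted p = 0.38) and was higher in the second (1.57 ± 0.26, edgeR adjusted p = 0.00037).

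**Figure D3:**
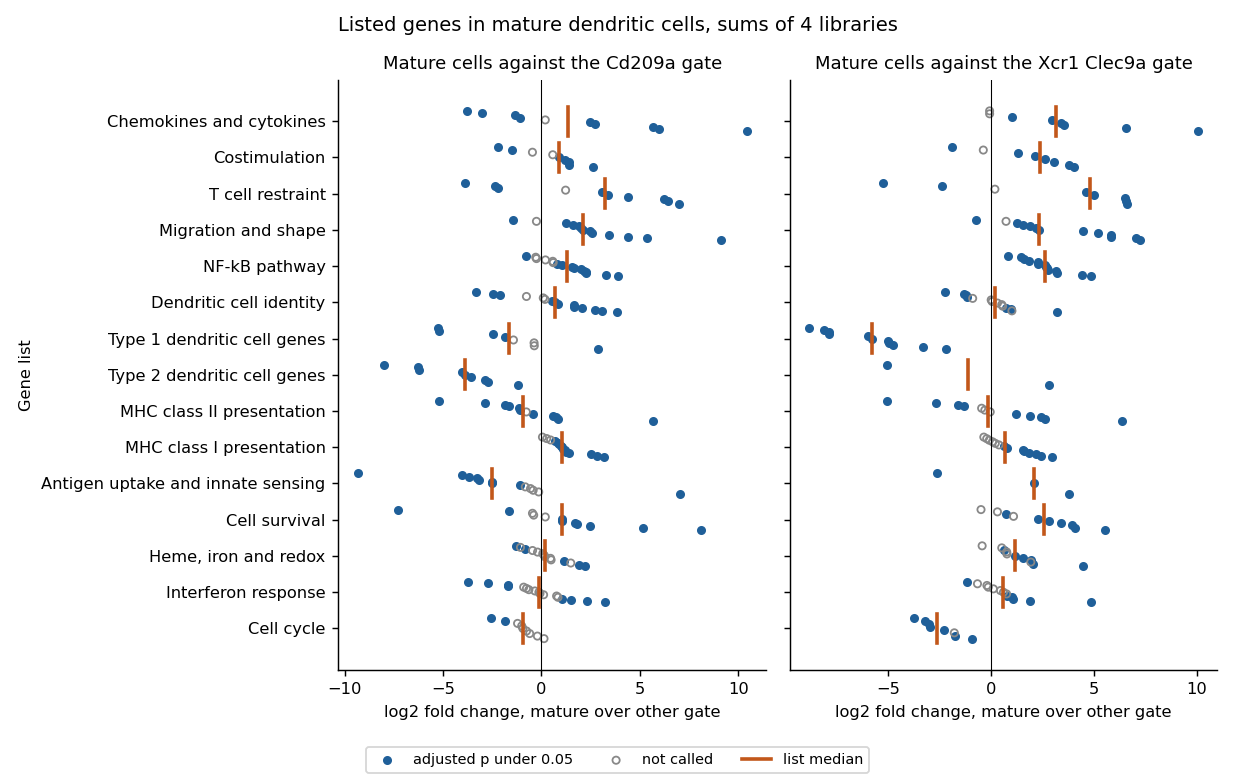
Log2 fold change of each listed gene in the mature dendritic cells against *Cd209a* dendritic cells and against *Xcr1* *Clec9a* dendritic cells. Filled points had an adjusted p under 0.05, open points did not, and orange bars are list medians, where the fitted value of a gene at 0 in a gate depends on the prior count. Medians were 2.13 and 2.31 for migration and shape and −3.90 for type 2 dendritic cell genes against *Cd209a* dendritic cells.

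The NF-kB list held subunits, inhibitors, receptors and kinases, and 10 of its 16 genes were higher against *Cd209a* dendritic cells, where *Nfkb1* alone was lower (median 1.30). Against *Xcr1* *Clec9a* dendritic cells all 14 tested genes were higher (median 2.64). *Relb* (chromosome 7, 19606217 to 19629438, minus strand) stood at 678, 819, 888 and 876 CPM in the mature cells, 40.8, 61.2, 77.8 and 58.8 CPM in *Cd209a* dendritic cells and 34.2, 83.6, 23 and 44 CPM in *Xcr1* *Clec9a* dendritic cells. No other gate came near the mature cells in any library. The differences were 3.88 ± 0.20 (edgeR adjusted p = 1.2e-14) and 4.44 ± 0.29 (edgeR adjusted p = 2.6e-07).

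*Nfkb2*, which encodes the p52 partner of RELB, was higher by 1.99 ± 0.28 (edgeR adjusted p = 2.2e-06) and 2.65 ± 0.41 (edgeR adjusted p = 0.00020), at 173, 76.0, 184 and 180 CPM. *Map3k14*, the kinase that triggers p52 production, was higher by 2.16 ± 0.23 (edgeR adjusted p = 2.3e-08) and 3.14 ± 0.25 (edgeR adjusted p = 1.0e-06). *Birc2*, a ubiquitin ligase that holds this kinase down, stood at 880, 507, 708 and 657 CPM and was higher by 3.27 ± 0.20 (edgeR adjusted p = 7.9e-13) and 4.84 ± 0.24 (edgeR adjusted p = 5.7e-08). The RELB branch was thus covered by its subunits, its kinase and an inhibitor of that kinase. *Nfkb1*, the precursor of p50, was lower by −0.80 ± 0.21 (edgeR adjusted p = 0.0033) against *Cd209a* dendritic cells, and this call was lost without control dpi4 (−0.64, adjusted p = 0.11). In the second contrast it was higher by 0.80 ± 0.23 (edgeR adjusted p = 0.013), which was lost without control dpi4 (0.85, adjusted p = 0.0535) or KO dpi4 (0.84, adjusted p = 0.056).

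*Rel* encodes c-REL, a subunit with a strong activation domain. Its level in the mature cells was 1991, 1258, 1939 and 1621 CPM against 499, 521, 800 and 654 CPM and 265, 412, 450 and 461 CPM, higher by 1.54 ± 0.16 (edgeR adjusted p = 1.1e-08) and 2.26 ± 0.20 (edgeR adjusted p = 2.0e-06). *Nfkbia* and *Nfkbie* encode inhibitors that hold NF-kB in the cytoplasm. Against *Xcr1* *Clec9a* dendritic cells *Nfkbia* was higher by 2.62 ± 0.26 (edgeR adjusted p = 6.3e-06), at 592, 591, 1332 and 1009 CPM against 171, 178, 149 and 139 CPM. *Nfkbie* was higher by 1.58 ± 0.26 (edgeR adjusted p = 0.00034), at 57.7, 127, 121 and 143 CPM against 37.0, 41.8, 49.0 and 46.6 CPM. Neither was called against *Cd209a* dendritic cells.

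NF-kB proteins bind sites that resemble GGG and TTCC with any 3 bases between them, and they control several genes of their own pathway. The 250 bases before each gene's RefSeq start (GRCm38.p6) were searched for this pattern on both strands, and no other motif was searched. Of 27025 genes with such a window 5.31% held a match, as did 6.37% of the genes tested against *Cd209a* dendritic cells, 8.25% of those higher in the mature cells, and 5.64% of those lower. Of the genes tested against *Xcr1* *Clec9a* dendritic cells 6.81% held one, as did 9.67% of those higher and 5.35% of those lower. On the NF-kB list 6 of 14 genes with a window held one, namely *Nfkb2*, *Nfkbia*, *Nfkbie*, *Rel*, *Tnfaip3* and *Tnip1*. Such a match is a description of the letters, and the list was chosen for its pathway. The windows of 4 of these are shown, as *Nfkb2* and *Rel* encode subunits that were higher in both contrasts and *Nfkbia* and *Nfkbie* inhibitors that were higher in the second. They read 5′ to 3′ on the gene's own strand, end at the base before the start, and have the match in capitals. *Nfkb2* is at chr19:46304487-46304736 (plus strand, 1 of its 3 windows, 2 matches, the first starting 38 bases before the start), *Rel* at chr11:23770970-23771219 (minus strand, match starting 91 bases before the start), *Nfkbia* at chr12:55492648-55492897 (minus strand, 29 bases) and *Nfkbie* at chr17:45555450-45555699 (plus strand, 106 bases).
Nfkb2: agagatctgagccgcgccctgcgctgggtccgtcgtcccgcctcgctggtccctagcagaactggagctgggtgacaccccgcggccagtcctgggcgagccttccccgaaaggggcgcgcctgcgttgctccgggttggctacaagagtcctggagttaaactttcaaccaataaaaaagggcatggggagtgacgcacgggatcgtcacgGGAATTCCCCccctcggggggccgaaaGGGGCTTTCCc
Rel: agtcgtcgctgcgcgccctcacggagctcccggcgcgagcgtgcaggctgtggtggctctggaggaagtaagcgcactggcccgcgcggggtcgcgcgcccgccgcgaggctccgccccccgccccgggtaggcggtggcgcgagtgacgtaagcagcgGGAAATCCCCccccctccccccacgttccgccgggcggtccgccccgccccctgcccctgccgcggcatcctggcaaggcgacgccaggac
Nfkbia: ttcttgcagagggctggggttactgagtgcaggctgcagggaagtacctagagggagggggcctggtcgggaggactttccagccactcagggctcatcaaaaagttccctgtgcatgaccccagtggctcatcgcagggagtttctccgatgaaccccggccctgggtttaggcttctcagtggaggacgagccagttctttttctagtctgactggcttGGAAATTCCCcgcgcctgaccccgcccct
Nfkbie: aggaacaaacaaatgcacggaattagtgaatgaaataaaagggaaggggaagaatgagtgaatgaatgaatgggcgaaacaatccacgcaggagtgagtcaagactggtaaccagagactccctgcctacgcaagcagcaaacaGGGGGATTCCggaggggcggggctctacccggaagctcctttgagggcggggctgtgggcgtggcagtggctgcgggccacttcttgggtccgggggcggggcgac

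Of 16 dendritic cell identity genes, several regulators of type 1 dendritic cells were higher than in *Cd209a* dendritic cells. Against *Cd209a* dendritic cells 9 of 15 tested genes of the list were higher and 3 lower (median 0.67), and against *Xcr1* *Clec9a* dendritic cells 3 of 14 were higher and 4 lower (median 0.18). *Id2*, an inhibitor of helix-loop-helix factors needed for type 1 dendritic cells, was higher by 3.86 ± 0.18 (edgeR adjusted p = 2.8e-15) against the first and by 0.73 ± 0.16 (edgeR adjusted p = 0.0023) against the second. *Irf8*, the factor that type 1 dendritic cells depend on, stood at 866, 338, 527 and 655 CPM between the 2 gates. *Cd209a* dendritic cells had 55.3, 45.6, 68.7 and 137 CPM and *Xcr1* *Clec9a* dendritic cells 1327, 1267, 1473 and 1740 CPM. *Irf8* was thus higher by 3.06 ± 0.22 (edgeR adjusted p = 2.1e-11) and lower by −1.18 ± 0.19 (edgeR adjusted p = 0.00031). *Batf3*, its partner, was higher by 2.09 ± 0.32 (edgeR adjusted p = 6.7e-06) against *Cd209a* dendritic cells.

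*Zbtb46*, a factor found in conventional dendritic cells, stood at 101, 50.7, 62.4 and 87.1 CPM and was higher by 1.66 ± 0.32 (edgeR adjusted p = 0.00017) against *Cd209a* dendritic cells. In the second contrast the difference of 0.98 ± 0.28 (edgeR adjusted p = 0.014) was lost without control dpi4 (adjusted p = 0.065) or KO dpi4 (adjusted p = 0.056). *Flt3*, the growth factor receptor of dendritic cells, had 130, 127, 208 and 219 CPM. It was higher by 0.67 ± 0.22 (edgeR adjusted p = 0.019) against *Cd209a* dendritic cells, lost without control dpi4 (0.80, adjusted p = 0.062) or KO dpi4 (0.74, adjusted p = 0.078) and at 0.08 in thinned cells. In the second contrast no difference was detected (0.05 ± 0.21, edgeR adjusted p = 0.87). *Irf4*, the factor of type 2 dendritic cells, was seen in 19 cells of the dpi4 libraries, at 0, 0, 38.2 and 47.8 CPM.

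Genes that mark either immature subset were low. All 11 tested type 1 genes of a list of 12 were lower than in *Xcr1* *Clec9a* dendritic cells (median −5.80, or −5.02 with genes at 0 set to their bound), and all 9 tested type 2 genes were lower than in *Cd209a* dendritic cells (median −3.90). *Naaa*, a lysosomal amidase, gave 3 UMIs in the mature cells against 2647 in *Xcr1* *Clec9a* dendritic cells, a pooled log2 ratio of −8.43 (counting interval −10.70 to −6.88). *Clec10a*, a lectin of type 2 dendritic cells, gave 1 UMI against 2948 in *Cd209a* dendritic cells (−8.11, counting interval −13.42 to −5.63). *Ccr2*, the receptor that brings monocytes and their progeny out of the blood, stood at 14.4, 8.45, 10.4 and 8.43 CPM against 844, 861, 761 and 784 CPM and was lower by −6.23 ± 0.30 (edgeR adjusted p = 5.8e-15). The exception on the type 1 list was *Cd8a*, which was higher than in *Cd209a* dendritic cells by 2.88 ± 0.52 (edgeR adjusted p = 8.4e-05) at 14.4, 0, 17.3 and 84.3 CPM. *Sirpa*, listed for type 2, was lower by −1.18 ± 0.24 (edgeR adjusted p = 0.00028) than in *Cd209a* dendritic cells and higher by 2.83 ± 0.36 (edgeR adjusted p = 4.2e-05) than in *Xcr1* *Clec9a* dendritic cells. The gate allowed no *Cd209a* and at most 1 *Xcr1* or *Clec9a* UMI, and both lists mark what it turned away.

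Genes around MHC class II differed in both directions, also among the 3 listed H2-DM genes, whose products exchange peptides on class II. The class II chains themselves were part of the gate and were not tested. Of 12 listed genes around them, 4 were higher and 7 lower against *Cd209a* dendritic cells (median −0.94), and 5 were higher and 4 lower against *Xcr1* *Clec9a* dendritic cells (median −0.18). *H2-DMa* and *H2-DMb1* were lower in both contrasts and *H2-DMb2* was higher. *H2-DMa* stood at 144, 253, 187 and 185 CPM against 724, 657, 766 and 796 CPM and 652, 616, 703 and 720 CPM, lower by −1.84 ± 0.20 (edgeR adjusted p = 3.2e-08) and −1.64 ± 0.20 (edgeR adjusted p = 3.0e-05). *H2-DMb1* was lower by −2.89 ± 0.22 (edgeR adjusted p = 4.0e-11) and −2.70 ± 0.23 (edgeR adjusted p = 1.5e-06). *H2-DMb2* stood at 72.1, 228, 135 and 199 CPM against 89.3, 107, 90.3 and 98.0 CPM and 34.2, 97.5, 35.2 and 44.0 CPM. It was higher by 0.85 ± 0.24 (edgeR adjusted p = 0.0063) in 3 of 4 libraries, a call lost without KO dpi4 (0.68, adjusted p = 0.11) and with each cell thinned to 2000 UMIs (0.80, adjusted p = 0.14), and by 1.90 ± 0.27 (edgeR adjusted p = 8.8e-05) in the second contrast.

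*March1*, the ubiquitin ligase that removes class II and CD86 from the surface of immature cells, gave 2 UMIs in the 78 cells against 830 in *Cd209a* dendritic cells (pooled log2 ratio −5.28, counting interval −8.33 to −3.43) and 219 in *Xcr1* *Clec9a* dendritic cells (−5.42, counting interval −8.47 to −3.54). *H2-Eb2* (chromosome 17, 34325665 to 34341412, plus strand), a little-used class II beta chain, was the reverse. It stood at 274, 321, 257 and 247 CPM against 3.92 to 6.81 CPM and 0 to 13.9 CPM, higher by 5.68 ± 0.27 (edgeR adjusted p = 5.8e-15) and 6.38 ± 0.48 (edgeR adjusted p = 5.6e-07). *Ciita*, the switch for class II transcription, had 0, 33.8, 93.6 and 56.2 CPM and did not pass (−0.77 ± 0.32, edgeR adjusted p = 0.066), although it did without control dpi4 (−1.23, adjusted p = 0.025) and with a minimum of 2 UMIs of each gate gene (−0.98, adjusted p = 0.025). MHC genes have near-identical relatives, so reads may have been shared between them.

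MHC class I genes were higher as a group against *Cd209a* dendritic cells, with 12 of 15 called higher, none lower and a median of 1.05. Against *Xcr1* *Clec9a* dendritic cells 8 of 14 were higher and none lower (median 0.68). *B2m*, the light chain, stood at 4011, 2736, 4918 and 4689 CPM and was higher by 1.10 ± 0.14 (edgeR adjusted p = 3.1e-07) and 1.84 ± 0.14 (edgeR adjusted p = 8.9e-07). *H2-Q7*, a nonclassical heavy chain, was higher by 3.16 ± 0.21 (edgeR adjusted p = 4.3e-12) and 2.97 ± 0.26 (edgeR adjusted p = 1.9e-06). *Nlrc5*, the activator of class I transcription, was higher by 2.81 ± 0.35 (edgeR adjusted p = 3.5e-07) and 2.44 ± 0.35 (edgeR adjusted p = 9.7e-05) at 57.7, 67.6, 118 and 118 CPM. *Tap1*, a peptide transporter, did not differ detectably from the *Xcr1* *Clec9a* dendritic cells (0.07 ± 0.22, edgeR adjusted p = 0.83).

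Uptake and sensing receptors were lower for 8 of 13 tested genes against *Cd209a* dendritic cells, among them *Mrc1*, *Fcgr1*, *Fcgr2b*, *Cd14* and *Tlr2*, with a median of −2.52. *Fcgr2b*, the inhibitory Fc receptor, was lower by −4.02 ± 0.37 (edgeR adjusted p = 1.3e-09) and also against *Xcr1* *Clec9a* dendritic cells, by −2.62 ± 0.45 (edgeR adjusted p = 0.00046). *Cd209d*, a lectin beside *Cd209a* in the genome, had no UMI and was at least 19.2-fold lower than in *Cd209a* dendritic cells, with the floor set at 3 UMIs over the 4 libraries. *Ly75* (chromosome 2, 60292103 to 60383303, minus strand), which encodes the uptake receptor DEC-205, was the 1 gene of the list that was higher in that contrast. It stood at 188, 312, 184 and 160 CPM against 0.763, 2.05, 2.27 and 1.47 CPM, by 7.03 ± 0.35 (edgeR adjusted p = 1.2e-14), and was higher by 2.08 ± 0.28 (edgeR adjusted p = 6.7e-05) against *Xcr1* *Clec9a* dendritic cells. In the second contrast 3 genes of the list were tested, of which *Ly75* and *Axl*, a receptor for dying cells, were higher and *Fcgr2b* was lower.

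Survival genes were mostly higher, 7 of 12 against 2 lower in the first contrast (median 1.07) and 7 of 10 against none in the second (median 2.55). *Serpinb6b* and *Serpinb9*, inhibitors of granule proteases, stood at 909, 228, 548 and 565 CPM and at 664, 194, 676 and 683 CPM. They were higher than in *Cd209a* dendritic cells by 8.08 ± 0.28 (edgeR adjusted p = 2.3e-17) and 5.18 ± 0.26 (edgeR adjusted p = 8.8e-15). *Bcl2a1b* and *Bcl2a1d*, close copies of an NF-kB target that blocks apoptosis and whose reads may be shared, were higher by 2.48 ± 0.20 and 1.73 ± 0.22. *Bcl2* itself had no UMI in the mature cells and was at least 4.95-fold lower than in *Cd209a* dendritic cells.

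Of 14 tested heme, iron and redox genes, 3 were higher and 2 lower against *Cd209a* dendritic cells (median 0.16), and 9 were not called. These counts lie near the shares over all tested genes, 13.8% higher and 18.8% lower. Against *Xcr1* *Clec9a* dendritic cells 6 of 11 were higher (median 1.14). *Ftl1*, the ferritin light chain, was higher in both, by 1.13 ± 0.14 (edgeR adjusted p = 4.0e-07) and 2.04 ± 0.13 (edgeR adjusted p = 2.4e-07). *Fth1*, the ferritin heavy chain, was lower by −1.27 ± 0.20 (edgeR adjusted p = 8.6e-06) against *Cd209a* dendritic cells. *Slc7a11*, the cystine importer, stood at 505, 321, 205 and 124 CPM and was higher by 2.22 ± 0.24 (edgeR adjusted p = 2.5e-08) and 4.46 ± 0.51 (edgeR adjusted p = 1.7e-05). *Hmox1* is taken up with the comparison of genotypes.

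Of the interferon-response genes, 4 of 17 were higher against *Cd209a* dendritic cells (*Gbp2*, *Gbp5* and *Mx1* among them) and 4 were lower (*Ifit1*, *Ifit2*, *Ifit3* and *Ifi47*), with a median of −0.13. Against *Xcr1* *Clec9a* dendritic cells 5 of 13 were higher and 1 was lower, with a median of 0.60. *Gbp2*, a guanylate-binding protein, was higher by 2.30 ± 0.30 (edgeR adjusted p = 8.7e-07) than in *Cd209a* dendritic cells, and *Ifit2*, an RNA-binding antiviral protein, was lower by −3.73 ± 0.48 (edgeR adjusted p = 6.0e-07). Proliferation genes were lower in 7 of 8 tested against *Xcr1* *Clec9a* dendritic cells (median −2.64), led by *Mki67* at 0, 0, 10.4 and 33.7 CPM against 336, 153, 187 and 324 CPM (−3.74 ± 0.40, edgeR adjusted p = 1.1e-05). Against *Cd209a* dendritic cells 2 of 9 were lower and 7 were not called (median −0.94). A *Mki67* UMI was found in 6 of the 78 cells.

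Beyond the lists, the 10 highest called genes that were higher in all 4 libraries included receptors that are known best from activated lymphocytes. *Tnfrsf4*, which encodes OX40, stood at 86.6, 84.5, 357 and 258 CPM with 5 UMIs in all *Cd209a* dendritic cells, higher by 8.16 ± 0.46 (edgeR adjusted p = 1.4e-13). *Tnfrsf9*, which encodes 4-1BB, gave 75 UMIs against 1 in *Cd209a* dendritic cells (pooled log2 ratio 9.64, counting interval 7.12 to 14.96) and was at least 64.2-fold higher than in *Xcr1* *Clec9a* dendritic cells, which had none. *Tcf7*, a transcription factor of T cells, gave 69 UMIs against 1 and 0. *Il2ra*, the IL-2 receptor alpha chain, stood at 289, 422, 284 and 281 CPM and gave 2 UMIs in *Xcr1* *Clec9a* dendritic cells. Of the 11 T and NK cell marker genes 8 were at 0 in these cells, as given above. Further leading genes were *Slco5a1*, *Lad1* and *Tmem150c*, with 97, 79 and 61 UMIs against none in *Cd209a* dendritic cells, or at least 344-fold, 280.4-fold and 216.5-fold higher. Genes with none in the other gate passed the count filter only through the mature cells. *Zmynd15*, *Nudt17*, *Synpo2*, *Flrt3* and *Gria3* led against *Xcr1* *Clec9a* dendritic cells. Among the lowest genes, *Cysltr1*, a leukotriene receptor, had no UMI in the mature cells and 1174 in *Cd209a* dendritic cells, at least 36.8-fold lower, and *Sept3* was at least 45.1-fold lower than in *Xcr1* *Clec9a* dendritic cells.

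The mature cells differed among themselves. Most of these values come from the dpi4 libraries, which held 62 of the 78 cells. *Ccl5* was found in 62 cells and reached 246 UMIs per 10000 in 1 cell, *Ccl22* was found in 55 with a highest value of 55.8, and *Il12b* in 32 with a highest value of 67.3. One cell gave 24.5% of all *Il12b* UMIs. Across cells *Ccl22* and *Ccl5* gave a Spearman rho of −0.06 (n = 78), *Il12b* and *Irf8* were positively related (0.43; 0.54 in control dpi4 and 0.50 in KO dpi4), and *Ccl22* and *Il12b* gave 0.38 (0.16 in control dpi4 and 0.48 in KO dpi4). The cells share libraries and differ in depth, so these are descriptions.

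**Figure D4:**
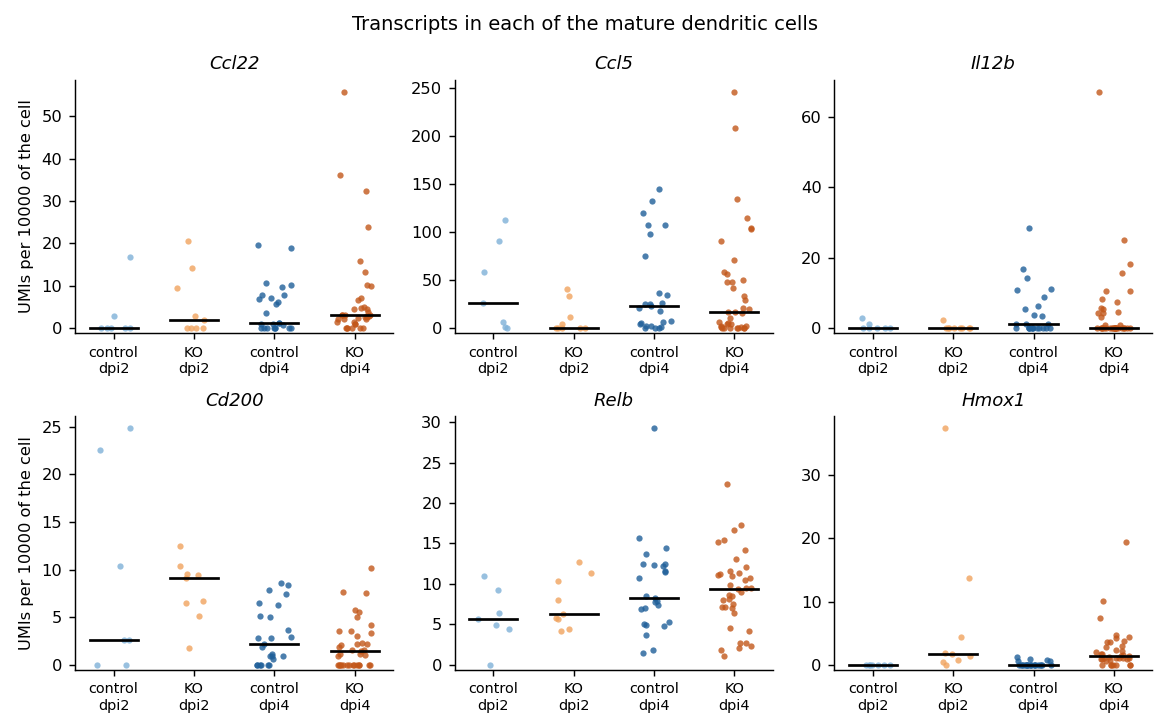
UMIs per 10000 of *Ccl22*, *Ccl5*, *Il12b*, *Cd200*, *Relb* and *Hmox1* in each of the 78 mature dendritic cells, by library, with the median as a black bar. *Relb* was present in 77 of 78 cells, whereas *Il12b* was present in 32 and *Hmox1* in 43, of which 38 were in the libraries labelled KO.

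Within the gate, cells with more *Fscn1* had less class II RNA. The rank correlation of *Fscn1* with the sum of the 4 class II genes was −0.52 over the 78 cells, −0.57 in control dpi4 and −0.58 in KO dpi4. Both measures belong to the gate, which cut class II from below. Of the genes outside the gate that were compared with the class II sum, some were related to it. *Ccl5* (−0.50), *Serpinb6b* (−0.44), *Cacnb3* (−0.40) and *B2m* (−0.39) were higher where class II was low, and *Ciita* (0.49), *H2-DMa* (0.46) and *H2-DMb2* (0.42) were higher where it was high. *Cd83* (0.06), *Fas* (−0.07), *Cd200* (−0.11), *Cd86* (0.13), *Cd40* (−0.14), *Il4i1* (0.16) and *Ccl22* (0.16) gave values between −0.14 and 0.16 over the 78 cells. Within control dpi4 and KO dpi4 several lay outside this range, at −0.34 and −0.07 for *Fas*, −0.21 and −0.34 for *Cd200*, 0.32 and 0.07 for *Cd86*, 0.25 and −0.11 for *Il4i1* and 0.29 and −0.16 for *Ccl22*. All of these values share a denominator, the UMIs of the cell.

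**Figure D5:**
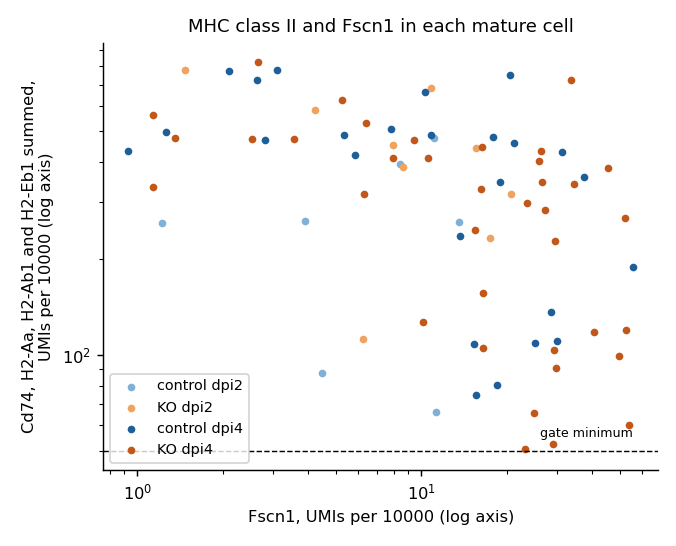
Sum of *Cd74*, *H2-Aa*, *H2-Ab1* and *H2-Eb1* against *Fscn1* in each mature dendritic cell, both as UMIs per 10000 on logarithmic axes and coloured by library. The dashed line is the gate minimum of 50, and cells with more *Fscn1* sat lower on the class II axis (Spearman rho −0.52).

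Comparisons over time and genotype used ratios of CPM with an exact 95% interval for counting error. A gene was said to pass when the ratio was at least 2-fold, the interval left out equality and the pair held at least 20 UMIs. From dpi2 to dpi4, 103 genes were higher (4.33% of 2381) and 96 lower (4.03%) in the controls, or 187 and 46 with TMM factors. In the libraries labelled KO, 190 were higher (6.48% of 2932) and 174 lower (5.93%), or 238 and 130 with TMM factors. Of 210 listed genes, 106 had enough UMIs in the controls, of which 14 passed higher and 3 lower. In the KO libraries 17 of 123 passed higher and 11 lower. Of 2271 genes measured in both, 31 were higher and 18 lower in both genotypes, and 1 cell held over 50% of the UMIs of the higher library for 16 of these 49.

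*Il12b* was among the genes higher at dpi4 in both genotypes, from 72.1 to 531 CPM in the controls (log2 ratio 2.88, interval 1.63 to 4.52) and from 25.3 to 626 CPM in KO (4.63, interval 3.06 to 6.92). At dpi2 it rested on 5 and 3 UMIs. *Apol7c* (chromosome 15, 77524852 to 77533316, minus strand), an apolipoprotein L gene, had no UMI at dpi2 and 65 and 217 UMIs at dpi4, log2 ratios of at least 2.38 and 4.59. It lay in 5 of 25 and 12 of 37 cells. *Net1*, a guanine nucleotide exchange factor for RhoA, had 0 and 8 UMIs at dpi2 and 80 and 109 at dpi4. *Tnfrsf4* was higher by 2.05 (interval 0.87 to 3.52) and 1.61 (0.67 to 2.72), and *Tnfsf9*, which encodes the 4-1BB ligand, by 1.40 (0.36 to 2.66) and 1.24 (0.23 to 2.43). At dpi2 the *Tnfsf9* UMIs, 8 and 9, came from 1 cell in each library. *Tnfsf4*, which encodes the ligand of OX40, gave 2 UMIs in the 78 cells. The leading genes of the rule were completed by *Snn*, *Gm10851*, *Sepp1* and *Maff*, of which *Gm10851* did not pass in KO without the cell rich in neutrophil transcripts (interval −0.08 to 7.94).

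*Apoe*, which encodes a lipid carrier made in bulk by macrophages, also passed in both, from 86.6 to 1006 CPM (3.54, interval 2.40 to 5.0) and from 92.9 to 458 CPM (2.30, interval 1.42 to 3.33). The T cells of the same libraries showed 105, 81.2, 943 and 346 CPM, and macrophages 4519, 6159, 26045 and 19393 CPM. As a mean over cells in place of a sum, the KO ratio was 0.89. Thinned detection was 14.3%, 0%, 92.0% and 61.1% in the mature cells against 33.3%, 20%, 81.3% and 62.5% in T cells. The change with time was thus seen in T cells too, and the part of free RNA in it was not tested.

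*Cd200* was lower at dpi4 in both genotypes, from 851 to 295 CPM (−1.53, interval −2.03 to −1.03) and from 684 to 228 CPM (−1.59, interval −2.05 to −1.13). It was held by 5 of 7 and 9 of 9 cells at dpi2 and by 19 of 25 and 23 of 37 at dpi4. The other leading genes that were lower in both were *Fubp1*, *Ranbp2*, *Erp44*, *Ktn1* and *Hexa*, with log2 ratios from −1.97 to −1.07. *Slc7a11* was lower by −1.30 (interval −1.93 to −0.66) and −1.38 (−2.04 to −0.71). In KO 57.9% of its dpi2 UMIs lay in 1 cell, and without the cell rich in neutrophil transcripts the ratio was −0.30. Several mainstays of the mature state did not pass with time in the controls: *Relb* (0.39, interval −0.06 to 0.87), *Ccl22* (0.39, −0.19 to 1.01) and *Ccl5* (0.47, 0.26 to 0.69).

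Some genes passed in 1 genotype. In the controls *Nfkbia* was higher at dpi4, from 592 to 1332 CPM (1.17, interval 0.70 to 1.67), with *Tnfaip3*, another NF-kB inhibitor (1.41, 0.67 to 2.25), and *Icam1*, an adhesion ligand (2.01, 0.73 to 3.67), and *Batf3* was lower (−1.59, −2.45 to −0.71). In KO *Ccl5* was higher, from 1030 to 3981 CPM (1.95, interval 1.68 to 2.23; 2.42 without the cell rich in neutrophil transcripts), as were *Serpinb9* (1.81, 1.19 to 2.50), *Serpinb6b* (1.31, 0.72 to 1.95) and *Nfkb2* (1.24, 0.23 to 2.43). Whether these changes differ between the genotypes was not tested.

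Between genotypes at dpi2, 73 genes were higher in KO (5.50% of 1327) and 75 lower (5.65%), or 113 and 50 with TMM factors. At dpi4, 71 were higher (1.97% of 3603) and 112 lower (3.11%), or 88 and 86 with TMM factors. Of the listed genes 7 passed higher and 6 lower of 80 at dpi2, and 3 higher and 4 lower of 131 at dpi4. Several genes that were higher in the mature cells than in the other gates did not pass at dpi4: *Ccl22* stood at 548 and 843 CPM (0.62, interval 0.34 to 0.91), *Ccl5* at 4162 and 3981 CPM (−0.06, −0.18 to 0.05), *Il12b* at 531 and 626 CPM (0.24, −0.06 to 0.55), *Cd200* at 295 and 228 CPM (−0.37, −0.83 to 0.08) and *Relb* at 888 and 876 CPM (−0.02, −0.26 to 0.23). For the last 4 the interval included equality.

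Of 1319 genes measured at both days, 3 were higher in KO at both, 1 was lower at both and 5 passed in opposite directions. *Hmox1* (chromosome 8, 75093621 to 75100589, plus strand), the heme-degrading enzyme that BACH1 is known to repress, was the first of the 3. The mature cells held 0, 329, 17.3 and 185 CPM, from 0, 39, 5 and 66 UMIs. At dpi2 the log2 ratio was at least 2.93 with the control at the floor of 3 UMIs, and at dpi4 it was 3.42 (interval 2.12 to 5.09). The UMIs lay in 8 of 9 KO cells against 0 of 7 control cells at dpi2, and in 30 of 37 against 5 of 25 at dpi4. At dpi2, 46.2% came from the cell rich in neutrophil transcripts. Without it 21 UMIs remained, or 199.6 CPM, with a log2 ratio of at least 2.21.

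The same step in *Hmox1* was seen in every other gate of these libraries. *Cd209a* dendritic cells showed 82.0, 321, 51.1 and 241 CPM, *Xcr1* *Clec9a* dendritic cells 8.54, 114, 19.9 and 95.8 CPM, T cells 20.9, 114, 7.79 and 312 CPM and macrophages 599, 9605, 453 and 7202 CPM. In thinned cells *Hmox1* was found in 0%, 50%, 4% and 30.6% of mature cells and 6.67%, 30.0%, 0% and 43.8% of T cells. In KO dpi4 the mature cells were below T cells in level and share, and in KO dpi2 and control dpi4 they were above them in both. In control dpi4 this rested on 5 UMIs in the mature cells, and after thinning on 1 positive mature cell against 0 T cells. The KO dpi2 level was 199.6 CPM without the cell rich in neutrophil transcripts. The part of free RNA was not tested. Against the other dendritic cells *Hmox1* was not called for *Cd209a* (−0.45 ± 0.29, edgeR adjusted p = 0.25), and for *Xcr1* *Clec9a* it was higher by 1.14 ± 0.32 (edgeR adjusted p = 0.011) with 2 libraries higher and 2 lower, a call lost with DESeq2 (adjusted p = 0.15) and at 0.87 without the cell rich in neutrophil transcripts.

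*Ptgs2*, the prostaglandin synthase COX-2, was also higher in KO at both days, from 86.6 to 220 CPM (1.34, interval 0.03 to 2.91) and from 41.6 to 89.9 CPM (1.11, 0.11 to 2.20), in 4 of 9 and 11 of 37 KO cells. The cell rich in neutrophil transcripts held 13 of its 26 KO dpi2 UMIs, and without it the dpi2 pair held 19 UMIs, under the minimum, with a log2 ratio of 0.51 (interval −0.98 to 2.19). *Ddt*, higher at both, and *Rora*, lower at both, each drew over 50% of the higher library's UMIs at 1 day from 1 cell. At dpi2 alone, *Fth1* was higher in KO by 1.98 (interval 1.71 to 2.27), 1.48 without the cell rich in neutrophil transcripts, and *Irf1*, an interferon-induced factor, went from 1 to 39 UMIs. *Il1b* was higher by 2.64 (interval 2.13 to 3.20), or 2.09 without that cell, with 70.6% of the control UMIs in 1 cell. *Ccl5* was lower by −1.54 (interval −1.88 to −1.21), or −2.02 without the same KO cell, *Serpinb6b* by −1.99 (−2.70 to −1.32), *Serpinb9* by −1.77 (−2.56 to −1.02) and *Irf8* by −1.36 (−1.97 to −0.76). As a mean over cells the *Irf8* ratio was −0.52. All of these rest on 7 and 9 cells. At dpi4 alone, *Tnfaip3* was lower in KO, from 614 to 267 CPM (−1.20, interval −1.58 to −0.83), as was *Rsad2*, an interferon-induced gene (−1.26, −2.17 to −0.40), and *Cd8a* went from 5 to 30 UMIs in 1 and 8 cells (2.28, interval 0.90 to 4.0).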

How the data were processed

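CD45+ cells of injured mouse muscle were profiled with droplet 3′ single-cell RNA sequencing, 1 library for each of 4 groups. The authors aligned the reads to mm10 with Cell Ranger (6.1.2 in the submitters' processing notes), and the deposited files hold UMI counts of 27998 genes per barcode. From these, barcodes with at least 500 genes and under 10% mitochondrial UMIs were kept and gated on raw UMIs. The deposited libraries held 57010520 to 80228489 UMIs. The members, gene lists (23 lists, 269 of 272 genes matched) and tests were chosen with earlier results of these data known.

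UMI counts were summed per library and gate and compared with edgeR 4.0.16 (quasi-likelihood, TMM factors, low counts filtered, library block, 3 residual degrees of freedom, Benjamini-Hochberg adjustment). SE is the fold change divided by the root of F. Gate genes were left out. Group differences are ratios of counts per 1000000 UMIs with exact conditional binomial intervals, at the 95% level, which cover counting error only. A count of 0 was set to a floor of 3 UMIs. Named genes were the listed genes, the 10 highest and 10 lowest called genes of each contrast that moved the same way in all libraries, genes past the size rule at both times or in both genotypes, *Bach1*, *Lyz2*, *Lyz1* and the gate genes, of which some are not reported here. Doublets were not removed. Removal of the highest Scrublet scores (0.8% per 1000 barcodes) was an alternative. Other alternatives were DESeq2 1.42.0, other scaling, no filter, no block, cells thinned to 2000 UMIs, stricter gates and each library left out. Python 3.11.15, scanpy 1.11.5, numpy 2.4.6, scipy 1.17.1, pandas 2.3.3 and R 4.3.3 were used. The tests and intervals were also run on simulated sums, drawn without single cells, which cannot check the effect of 1 rich cell.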

Additional observations from a re-analysis of the deposited data

Results flagged for a closer look

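For 5 genes the ratio of the library labelled KO over control passed the size rule in opposite directions at dpi2 and dpi4. Among them, the log2 ratios were 6.51 and −1.39 for *Cxcl2*, 1.34 and −1.07 for *Mt1*, −2.77 and 1.93 for *Gm13546* and −1.16 and 1.19 for *Ramp3*. In *Cxcl2* the KO dpi2 cell rich in neutrophil transcripts held 93.0% of the UMIs of the higher library, and without it the pair held 12 UMIs, under the minimum of 20. In *Ramp3* 1 cell held 63.3%. For 13 genes the ratio of dpi4 over dpi2 passed in opposite directions in the 2 genotypes. They were *Il1b*, *Ly6a*, *Cd9*, *Stat4*, *Lrp8*, *Etfa*, *Hmgcs1*, *Gm13546*, *Arap2*, *Ahcyl2*, *Rasa2*, *Tes* and *Nrip1*, and in the first 4 of these 1 cell held over 50% of the UMIs of the higher library in at least 1 genotype. *Il1b*, which encodes an inflammatory cytokine, was the 1 listed gene among them, higher at dpi4 in the controls by 1.07 and lower in KO by −1.89. In the controls 1 cell held 68.0% of the dpi4 UMIs, and without the KO dpi2 cell rich in neutrophil transcripts the KO ratio was −1.34. Without this KO dpi2 cell *Cd9* no longer passed in KO, at 0.24 (interval −1.22 to 2.01) in place of −1.27, nor did *Ahcyl2*, at 1.18 (interval −0.05 to 2.70), and for *Gm13546* the dpi2 pair held 19 UMIs. With 1 library per group, none of these differences was tested.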

How the results depend on the processing

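Among named genes in the 2 contrasts, 2531 of the recomputed values kept their direction and side of the threshold, 74 were no longer called, 10 became called and 3 changed sign. The last were *Flt3* against *Xcr1* *Clec9a* dendritic cells, at −0.13 with library totals, −0.042 with no filter and −0.025 without control dpi4 (from −0.025 to 0.14 over the left-out libraries). In cells thinned to 2000 UMIs, 389 genes were higher and 453 lower than in *Cd209a* dendritic cells, and 179 and 124 against *Xcr1* *Clec9a* dendritic cells, from fewer genes tested. With no filter 1390 were lower in the second contrast. Leaving out each library in turn gave 725 to 1041 higher and 976 to 1121 lower against *Cd209a* dendritic cells, and 671 to 945 higher and 581 to 886 lower against *Xcr1* *Clec9a* dendritic cells. The lowest, 581, was without KO dpi4. DESeq2 called 818 higher and 1025 lower, then 744 and 676. For KO over control at dpi2, TMM factors gave 113 higher, a minimum of 50 UMIs 19 and 21, and a 1.5-fold limit 122 lower. At dpi4 a 1.5-fold limit gave 127 and 187, and 50 UMIs gave 21 and 29. For dpi4 over dpi2 in the controls TMM gave 187 and 46, 50 UMIs 57 and 31, and a 1.5-fold limit 145 lower. In KO 50 UMIs gave 108 and 61. The share of mature cells was 2.94%, 5.14%, 11.4% and 14.0% of 3 dendritic cell gates, and at dpi4 0.334% and 0.583% after thinning and 0.910% and 1.70% with a mitochondrial limit of 5%. Without the cell rich in neutrophil transcripts, an alternative chosen after seeing the data, 64 and 77 genes passed for KO over control at dpi2. The 2 contrasts between gates had the library as a block, and with no library block 1005 genes were higher and 1356 lower against *Cd209a* dendritic cells, and 911 and 889 against *Xcr1* *Clec9a* dendritic cells. The 4 conditions had 1 library each and no replicate numbers, and a fit with genotype and day as terms, which would leave 1 residual degree of freedom, was not run. The cause of these changes was not tested. The dpi2 values rest on 7 and 9 cells, with 69310 and 118401 UMIs in all.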

Other observations

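For several genes high in the mature cells, 1 barcode held all or most UMIs of the *Xcr1* *Clec9a* gate in the KO dpi2 library. The gate left out barcodes with both *Ccr7* and *Fscn1*, so a barcode in it with *Ccr7* had no *Fscn1* UMI by construction. The richest barcode for each gene held all 121 *Ccr7* UMIs of that gate and library, all 110 *Il12b*, 26 of 26 *Il4i1* and 12 of 12 *Socs2* UMIs. For *Serpinb9* it held 98 of 99, for *Cd274* 15 of 16 and for *Samsn1* 70 of 76 UMIs, and *Ccl22* gave 1 UMI. The counts were taken gene by gene, and whether they came from the same barcode was not tested. The pattern was chosen after the values were seen. In the other 3 libraries 1 cell of this gate each held *Ccr7*, with 3, 5 and 8 UMIs.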
